A study of Mus musculus with 12 samples.

Results

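GABA-A receptor subunit mRNA was followed in the hippocampi of 12 mice from 2 lines, each with its own deletion in Shank2, which encodes a scaffold protein of excitatory postsynapses. The 7 genes described, taken by their Ensembl identifiers, encode 4 alpha subunits (Gabra2, Gabra3, Gabra4 and Gabra5), 2 beta subunits (Gabrb1 and Gabrb2) and the delta subunit (Gabrd). They are 7 of the 24590 genes listed in at least 1 mouse, all 7 were listed in all 12 mice, and all 7 reached the mean of 1 FPKM needed for testing. Male knockout mice without exons 6 and 7 of Shank2 (the exon 6-7 knockout, n = 3) were set against their wild-type controls (n = 3), and male knockout mice without exon 7 (the exon 7 knockout, n = 3) against theirs (n = 3). The strain of all 4 groups is a mix of C57BL/6J and C57BL/6N. The labels give an age of 8 to 15 weeks and a littermate relation for the mice used in behavioural tests, and do not say whether the RNA came from those animals. No drug, transgene or Cre driver is named for any group. Each mouse has its own number, which is used below to name it. The values are FPKM (fragments scaled by transcript length and library size), here scaled between libraries by a median of ratios. FPKM are per length, so that levels of different genes can be set side by side, and they hold no read counts, so that the depth behind each value is unknown.

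GABA-A receptors are chloride channels built of 5 subunits, most often alpha and beta subunits together with a gamma or a delta subunit, and they carry most fast inhibition in the brain. The alpha subunit sets much of where a receptor sits and how it responds. Receptors with alpha 5 are abundant in the hippocampus and lie largely outside synapses, those with alpha 2 are common at synapses on the cell body and the axon initial segment of pyramidal cells, and those with alpha 4 and delta carry tonic inhibition in dentate granule cells.

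The genes of Gabra2 (ENSMUSG00000000560, chromosome 5, 70957597 to 71095849, minus strand), Gabra4 (ENSMUSG00000029211, chromosome 5, 71569749 to 71658308, minus strand) and Gabrb1 (ENSMUSG00000029212, chromosome 5, 71658113 to 72149037, plus strand) lie with Gabrg1, the gene of a gamma subunit, in a cluster of 4 genes that spans 1398 kb. Gabra4 and Gabrb1 stand head to head, and their annotated starts overlap by 196 bp. Gabra3 (ENSMUSG00000031343) is on chromosome X, 72432681 to 72656848, minus strand. Gabra5 (ENSMUSG00000055078) is on chromosome 7, 57407672 to 57510059, minus strand. Gabrb2 (ENSMUSG00000007653) is on chromosome 11, 42419757 to 42629028, plus strand, and Gabrd (ENSMUSG00000029054) on chromosome 4, 155384980 to 155398112, minus strand. Coordinates are those of GENCODE M21 on mm10, the build named in the submitters' notes. Exons on the opposite strand cover 148 bases of Gabra5 (4.98% of its exon bases) and 46 bases each of Gabra4 and Gabrb1, where they overlap each other. The sources used here do not say whether strand was used in counting, so these 3 genes may hold some reads of their neighbours.

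Promoter windows of 300 bases (250 before and 50 after a RefSeq start, GRCm38.p6) were found for 6 of the 7 genes. Those of Gabra2, of the head-to-head neighbours Gabra4 and Gabrb1, and of Gabrb2 are printed because these genes carry the main contrasts described below. They run 5′ to 3′ on the gene's own strand, with capitals for 5 letter strings on either strand. These are the TATA box TATAAA, the GC box GGGCGG, the CCAAT box, the core TGACG of a cAMP response element and the EGR site GCGTGGGCG. For Gabrb1 and Gabrb2, which have several windows, the most upstream is shown. The regions are chr5:71095800-71096099 (Gabra2, minus strand), chr5:71658259-71658558 (Gabra4, minus strand), chr5:71657671-71657970 (Gabrb1, plus strand) and chr11:42420190-42420489 (Gabrb2, plus strand).
Gabra2: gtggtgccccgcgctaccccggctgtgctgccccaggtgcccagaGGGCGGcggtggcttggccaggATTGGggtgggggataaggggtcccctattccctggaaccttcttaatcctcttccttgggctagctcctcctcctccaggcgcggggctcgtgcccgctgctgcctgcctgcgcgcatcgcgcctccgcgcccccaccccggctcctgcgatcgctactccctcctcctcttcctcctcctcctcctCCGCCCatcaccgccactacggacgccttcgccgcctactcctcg
Gabra4: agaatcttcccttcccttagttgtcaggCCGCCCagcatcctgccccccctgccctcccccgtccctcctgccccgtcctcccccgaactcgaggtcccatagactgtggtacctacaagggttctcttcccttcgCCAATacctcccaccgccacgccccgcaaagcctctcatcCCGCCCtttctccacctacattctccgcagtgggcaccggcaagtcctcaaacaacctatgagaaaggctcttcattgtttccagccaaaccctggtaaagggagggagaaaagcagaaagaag
Gabrb1: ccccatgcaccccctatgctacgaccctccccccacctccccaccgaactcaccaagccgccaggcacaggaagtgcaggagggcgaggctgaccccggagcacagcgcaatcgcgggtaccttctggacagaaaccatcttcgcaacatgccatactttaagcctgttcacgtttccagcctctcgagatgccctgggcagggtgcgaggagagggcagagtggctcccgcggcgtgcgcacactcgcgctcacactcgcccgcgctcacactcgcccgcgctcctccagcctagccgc
Gabrb2: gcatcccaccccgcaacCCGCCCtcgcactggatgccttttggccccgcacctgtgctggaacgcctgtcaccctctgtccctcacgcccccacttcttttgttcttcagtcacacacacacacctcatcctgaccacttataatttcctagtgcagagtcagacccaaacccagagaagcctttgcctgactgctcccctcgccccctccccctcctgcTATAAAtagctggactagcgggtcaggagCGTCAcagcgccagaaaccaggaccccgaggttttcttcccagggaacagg
The windows of Gabra2 and Gabrb1 each hold 25 CpG dinucleotides, that of Gabra4 holds 12 and that of Gabrb2 holds 11, against a median of 7.0 over 32851 windows of the same length. The windows of Gabra2 and Gabra4 each hold GGGCGG at 2 places and CCAAT at 1 place, where 35.7% and 37.4% of all windows hold these letters. These matches describe letters, not binding. The window of Gabrb1 has none of the 5 letter strings. That of Gabrb2 holds the GC box, the TATA box (in 13.6% of all windows) and TGACG (in 20.8%) at 1 place each.

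Over all genes the lines stood apart more than the genotypes. Libraries correlated at 0.946 to 0.980 across genes within a line and at 0.833 to 0.899 between lines, and the mitochondrial share of summed FPKM was 10.3 to 14.3% for exon 7 mice and 6.22 to 7.39% for exon 6-7 mice. Whether the lines were prepared together is not stated, so line and preparation cannot be told apart. In each line 1 knockout and 1 wild-type library (KO776, WT778, KO969 and WT628, called set A) lacked the gene ENSMUSG00000095746, which had 218 to 435 FPKM in the other 8. Shank2 had 6.22, 7.02 and 6.15 scaled FPKM in KO776, KO777 and KO864, against 14.4, 13.8 and 14.9 in exon 6-7 wild-type mice WT778, WT809 and WT865 (log2 difference −1.04, limma adjusted p = 0.00972). Without KO776, WT778 or WT865 its adjusted p was above 0.05, up to 0.0887. In the exon 7 line it had 33.2, 43.5 and 44.6 in KO969, KO990 and KO994, against 36.0, 42.4 and 44.1 in wild-type mice WT628, WT993 and WT999. Its total level therefore does not check the exon 7 labels. Of the markers of the hippocampus, 9 of 9 dentate granule, 5 of 5 CA1 and 7 of 7 CA3 and CA2 genes reached a mean of 1 FPKM. So did 9 of 9 choroid plexus, 5 of 5 neocortex, 5 of 6 thalamus and 5 of 6 striatum genes. Reaching this mean therefore does not tell the hippocampus from other tissue.

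Gabra5 was the most abundant of the 7 mRNAs in all 12 mice and Gabrb2 differed most between the lines. In exon 6-7 knockout mice Gabra5 averaged 61.5 ± 5.53 scaled FPKM (SD, n = 3), followed by Gabra3 at 19.4 ± 0.678, Gabra4 at 16.3 ± 1.68, Gabrd at 14.3 ± 0.372, Gabra2 at 8.91 ± 0.939, Gabrb1 at 4.43 ± 0.665 and Gabrb2 at 3.02 ± 0.691. In that order only Gabra4 and Gabrd overlapped as neighbours. In exon 6-7 wild-type mice Gabra5 (59.6 ± 1.73) and Gabra3 (18.6 ± 2.15) again led, Gabra3, Gabrd (16.4 ± 1.13), Gabra4 (16.2 ± 1.42) and Gabra2 (13.9 ± 3.50) each overlapped their neighbour, and Gabrb1 (4.33 ± 1.25) overlapped Gabrb2 (2.30 ± 1.22). In exon 7 knockout mice Gabra5 averaged 71.5 ± 0.501 and stood apart. Gabrb2 at 40.2 ± 6.17, Gabra2 at 30.2 ± 7.15, Gabra3 at 24.6 ± 3.10, Gabra4 at 24.4 ± 4.62 and Gabrb1 at 21.2 ± 1.27 overlapped from each to the next, and Gabrd stood below them at 8.70 ± 0.930. Exon 7 wild-type mice had Gabra5 at 73.6 ± 5.87 and Gabrb2 at 45.8 ± 10.4, both apart from the rest, then Gabra2 at 30.9 ± 6.50, Gabra3 at 28.8 ± 1.96, Gabrb1 at 24.6 ± 0.297, Gabra4 at 24.6 ± 5.47 and Gabrd at 9.38 ± 1.79. Thus Gabrd was the lowest of the 7 in both exon 7 groups, where Gabrb2 came next to Gabra5, and Gabrb2 was the lowest in both exon 6-7 groups.

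**Figure D1:**
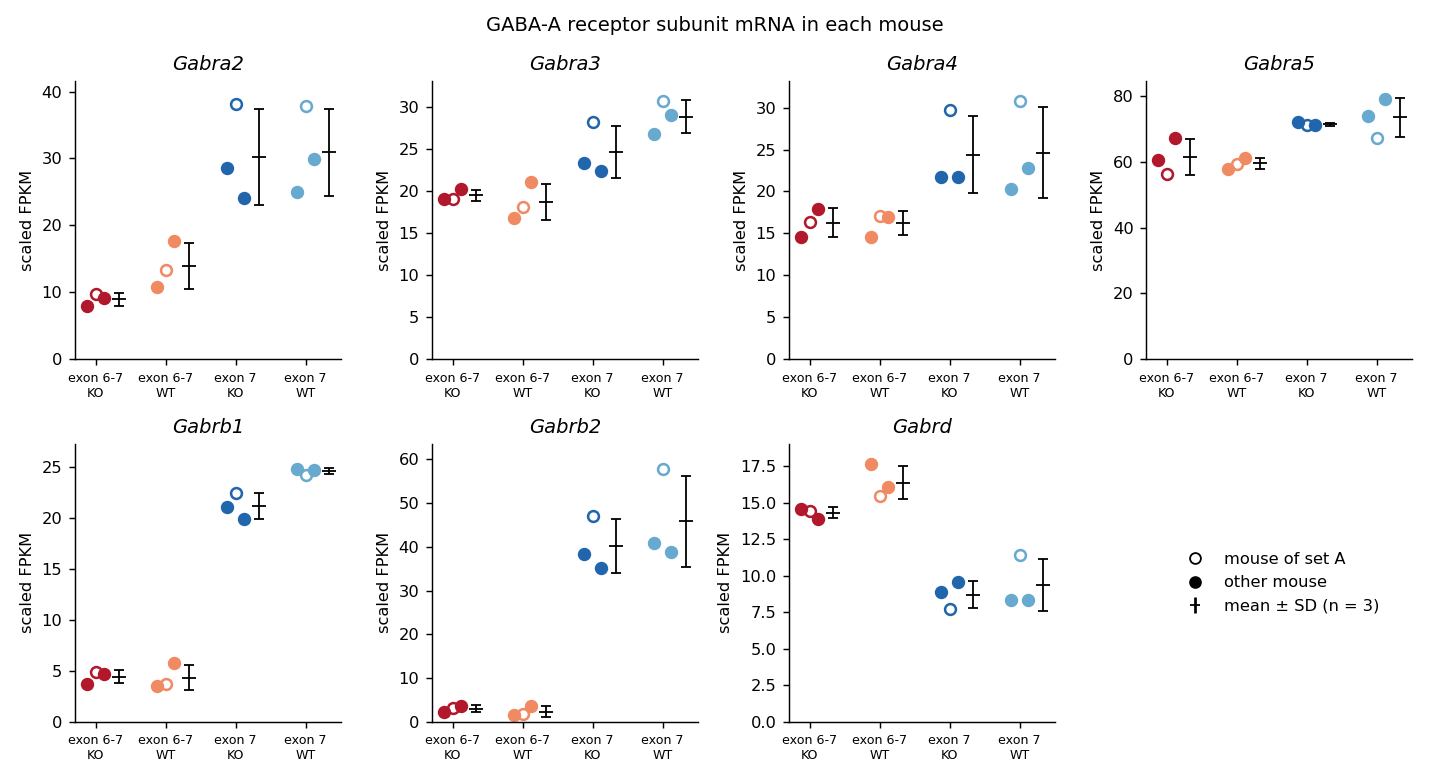
Scaled FPKM (vertical axes, from 0) of the 7 subunit genes in each mouse of the 4 groups, with open circles for set A, filled circles for the other mice, and the mean ± SD (n = 3) beside each group. Gabra2 lies at 7.87 to 9.70 in the exon 6-7 knockout mice, below the 10.7 to 17.7 of their wild-type controls, and Gabrb1 and Gabrb2 are far higher in both exon 7 groups.

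In the exon 6-7 line the question was whether loss of this Shank2 region goes with other inhibitory receptor mRNA levels. Gabra2, which encodes alpha 2, had 9.70, 7.87 and 9.16 scaled FPKM in KO776, KO777 and KO864, against 13.3, 10.7 and 17.7 in WT778, WT809 and WT865. All 3 knockout mice were below all 3 wild-type mice, a pattern shown by 6.29% of the genes tested (4.97% showed the opposite). The log2 difference was −0.57 (SE 0.204, 95% interval −1.01 to −0.12, unadjusted p = 0.0176), and 1.68% of genes had one at least as large in either direction. After Benjamini-Hochberg adjustment over all 14328 genes the limma p was 1.0, so Gabra2 did not pass. An exact two-sided permutation test gave p = 0.1, the smallest that 3 against 3 mice allow. The difference was −0.42 between the set A mice and −0.64 between the others, and −0.39 without WT865, the wild-type mouse with most Gabra2. In bulk tissue, fewer cells that express a gene and less RNA per cell cannot be told apart.

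Gabrd, the delta subunit gene, also had no overlap between genotypes in this line. Its knockout mice were all below its wild-type mice, as in 6.29% of the genes tested (4.97% showed the opposite). It had 14.4, 14.6 and 13.9 scaled FPKM in KO776, KO777 and KO864, against 15.4, 17.6 and 16.1 in WT778, WT809 and WT865. The log2 difference was −0.18 (SE 0.120, 95% interval −0.44 to 0.08, unadjusted limma p = 0.157, exact permutation p = 0.1). Of all genes tested, 19.2% had a difference at least as large in either direction. The other 5 genes overlapped between the groups. Gabra3, whose product is best known from monoaminergic and thalamic reticular neurons, had 19.0, 19.1 and 20.2 in KO776, KO777 and KO864, against 18.1, 16.8 and 21.0 in WT778, WT809 and WT865. Gabra4 had 16.4, 14.6 and 17.9, against 17.0, 14.6 and 17.0 in the same order of mice. The knockout values of Gabra3 lay inside the wild-type range, and the ranges of Gabra4 nearly coincided. Gabra5 had 56.5, 60.7 and 67.4 in the knockout mice, against 59.5, 57.9 and 61.3 in the wild-type mice.

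The beta subunit genes were low in this line and varied widely between mice. Gabrb1 had 4.92, 3.67 and 4.69 scaled FPKM in KO776, KO777 and KO864, against 3.69, 3.54 and 5.77 in WT778, WT809 and WT865. Gabrb2 had 3.10, 2.29 and 3.67 in the knockout mice, against 1.75, 1.45 and 3.70 in the wild-type mice. WT865 alone held the upper end of both wild-type ranges. The log2 differences were 0.33 for Gabrb2 (95% interval −0.19 to 0.86), 0.06 for Gabra3 (−0.17 to 0.30), 0.04 for Gabra5 (−0.14 to 0.23), 0.04 for Gabrb1 (−0.28 to 0.36) and 0.01 for Gabra4 (−0.35 to 0.36). With limma 0 of the 7 genes passed in either direction, where 0.0209% of all genes did, and Gabra2 was the only one with an unadjusted p under 0.05, as were 586 of 14328 genes. Of the 7 differences 5 were above 0 and 2 below, with a median of 0.04, beside −0.00 over all genes tested.

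**Figure D2:**
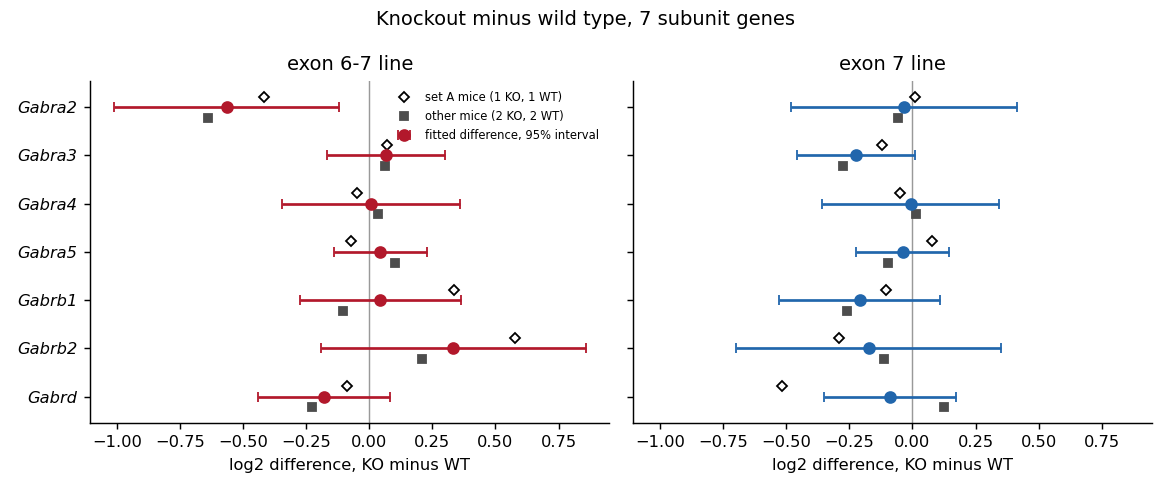
Log2 difference, knockout minus wild type, of each subunit gene in the exon 6-7 line (left) and the exon 7 line (right). Circles with bars are the fitted difference and its 95% interval, diamonds the difference between the set A mice and squares that between the other mice. The interval of Gabra2 in the exon 6-7 line, −1.01 to −0.12, is the only one that does not cover 0.

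Sums of cell type and tissue markers are given beside these values. With limma 0 genes of these lists passed in the exon 6-7 line, and their part in the Gabra2 and Gabrd values was not tested. Interneuron markers (9 genes) summed to 1690 to 1760 scaled FPKM in knockout mice and 1894 to 1903 in wild-type mice, and oligodendrocyte markers (6 genes) to 4463 to 4612 in knockout mice and 5070 to 6382 in wild-type mice. Neither of these ranges overlapped between the genotypes. A sum follows its most abundant genes. Gene by gene, the interneuron markers had a median log2 difference of −0.09, with 7 below 0 and 2 above (−0.37 for Pvalb to 0.19 for Cnr1). Gad1 and Gad2, genes of GABA synthesis, were at −0.04 and −0.006. All 6 oligodendrocyte markers were below 0, with a median of −0.38. Choroid plexus markers overlapped (9 genes) and summed to 6766 to 8444 in knockout mice, against 3991, 8650 and 42.8 in WT778, WT809 and WT865. Ttr alone made up 3934, 8494 and 35.6 of these wild-type sums. WT865, the wild-type mouse with most Gabra2, thus had the lowest choroid plexus sum. Meningeal markers (6 genes) summed to 61.6 to 68.0 in knockout mice and 44.0 to 51.9 in wild-type mice. CA1 markers (5 genes) summed to 207.5 to 219.6 in knockout mice and 219.8 to 237.3 in wild-type mice. Sums of dentate granule, CA3 and CA2, neuron, astrocyte, microglia, endothelial, thalamus, striatum, neocortex and blood markers overlapped between the genotypes. The sums were not tested, and 3 against 3 mice cannot give an exact permutation p below 0.1. As background on the strain, C57BL/6J mice carry an intronic deletion beside a splice site of Gabra2 that lowers its mRNA, which C57BL/6N mice lack. The labels give no Gabra2 allele for any mouse. Of genes that differ between these substrains, Wdfy1 had 11.7, 9.71 and 3.31 in KO776, KO777 and KO864, against 7.37, 6.75 and 3.81 in WT778, WT809 and WT865, so that the genotypes overlapped and the lowest mouse of each was KO864 and WT865. Nnt ranged from 5.67 to 8.82 in knockout mice and 5.29 to 6.59 in wild-type mice, Ide from 7.05 to 8.60 and 7.57 to 8.08, and Entpd4, a very low transcript, from 0.183 to 0.407 and 0.000728 to 0.321.

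In the exon 7 line no subunit gene passed the test either. Gabra2 had 38.1, 28.5 and 24.1 scaled FPKM in KO969, KO990 and KO994, against 37.8, 24.9 and 29.9 in WT628, WT993 and WT999. The highest value of each genotype came from its set A mouse, and the log2 difference was −0.03 (95% interval −0.48 to 0.41). Gabra3 had 28.1, 23.2 and 22.4 in the knockout mice, against 30.6, 26.7 and 29.0 in the wild-type mice, with KO969 inside the wild-type range. Its log2 difference was −0.22 (95% interval −0.46 to 0.01, unadjusted p = 0.0580, limma adjusted p = 1.0). Gabra4 had 29.7, 21.7 and 21.7 in the knockout mice, against 30.8, 20.3 and 22.8 in the wild-type mice. Gabra5 had 71.2, 72.0 and 71.2 in the knockout mice, against 67.5, 74.2 and 79.2 in the wild-type mice, a wider spread around nearly the same mean.

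Gabrb1 was the only one of the 7 genes without overlap between the exon 7 genotypes. It had 22.5, 21.1 and 19.96 scaled FPKM in KO969, KO990 and KO994, against 24.3, 24.8 and 24.8 in WT628, WT993 and WT999. All 3 knockout mice were below all 3 wild-type mice, as in 3.75% of the genes tested (3.25% showed the opposite), with a log2 difference of −0.21 (SE 0.145, 95% interval −0.53 to 0.11, exact permutation p = 0.1). Gabrb2 had 47.0, 38.4 and 35.1 in the knockout mice, against 57.7, 40.9 and 38.8 in the wild-type mice (log2 difference −0.17, 95% interval −0.70 to 0.35). Gabrd had 7.70, 8.87 and 9.54 in the knockout mice, against 11.4, 8.37 and 8.33 in the wild-type mice (log2 difference −0.09). For Gabrd the difference was −0.52 between the set A mice and 0.13 between the others, and 0.05 without WT628. With limma 0 of 7 genes passed, and 0.0% of all genes did. None of the 7 had an unadjusted p under 0.05, as 501 of 14328 genes had. All 7 differences were below 0, with a median of −0.09 beside −0.01 over all genes, but those of Gabra2, Gabra4 and Gabra5 were above 0 after rescaling to TPM, and that of Gabra4 also with FPKM as deposited and after quantile normalization. In this line too 0 genes of the marker lists passed. Blood transcripts (5 genes) summed to 255.3 to 390.4 in exon 7 knockout mice and 100.8 to 290.3 in wild-type mice, with overlap. Without overlap, oligodendrocyte markers summed to 4470 to 4788 in knockout mice and 4867 to 5126 in wild-type mice. Astrocyte markers (5 genes) summed to 510.7 to 529.5 in knockout mice and 443.4 to 487 in wild-type mice, and meningeal markers to 59.9 to 71.7 in knockout mice and 57.2 to 59.0 in wild-type mice. Neocortex markers (5 genes) summed to 67.8 to 71.0 in knockout mice and 73.8 to 79.3 in wild-type mice. Sums of dentate granule, CA1, CA3 and CA2, interneuron, neuron, microglia, endothelial, choroid plexus, thalamus and striatum markers overlapped between the genotypes. These sums were not tested either. The part of these transcripts in the subunit values was not tested.

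Whether the deletions differ in effect was tested as the exon 6-7 difference minus the exon 7 difference. For Gabra2 this was −0.53 (SE 0.289, 95% interval −1.16 to 0.10, limma adjusted p = 0.9997), so that a lower Gabra2 level in 1 line was not shown to be particular to it. For Gabrb2 it was 0.51 (95% interval −0.24 to 1.25) and for Gabra3 0.29 (95% interval −0.04 to 0.62). The remaining 4 genes lay between −0.09 and 0.25. None of the 7 passed in limma, where 0.014% of all genes did, and none had an unadjusted p under 0.05, as 570 genes had. For the mean of both knockout effects 0 of 7 passed (0.0209% of all genes), and Gabra2 was at −0.30 (95% interval −0.62 to 0.02). None had an unadjusted p under 0.05 there, as 512 genes had.

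The composition of the alpha subunit mRNA was taken as the share of each gene in the sum of Gabra2, Gabra3, Gabra4 and Gabra5 in a mouse, which no scaling of a library can change. A trend of a library with transcript length or GC content can still change it. These 4 genes made up 56.6 to 65.5% of all alpha subunit mRNA in exon 7 mice and 68.0 to 70.4% in exon 6-7 mice. Among these 4 genes Gabra5 was the largest share in all 12 mice, at 40.5 to 59.4%. Of all alpha subunit mRNA it made up 22.9 to 32.4% in exon 7 mice and 36.9 to 41.7% in exon 6-7 mice. In the exon 6-7 line Gabra2 made up 9.55, 7.70 and 7.98% in KO776, KO777 and KO864, against 12.3, 10.7 and 15.1% in WT778, WT809 and WT865. The means were 8.41 ± 0.996% and 12.7 ± 2.20%, a difference of −4.31 percentage points with no overlap of the groups (exact permutation p = 0.1). Gabra5 averaged 57.9 ± 2.05% in knockout mice and 55.2 ± 2.73% in wild-type mice, Gabra3 18.3 ± 0.615% and 17.2 ± 0.675%, and Gabra4 15.3 ± 0.979% and 14.96 ± 0.711%, each with overlap. The summed level of the 4 genes was 106.2 ± 7.40 scaled FPKM in knockout mice and 108.3 ± 8.51 in wild-type mice.

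In the exon 7 line the alpha share without overlap was another one. Gabra3 made up 16.8, 16.0 and 16.0% in KO969, KO990 and KO994, against 18.4, 18.3 and 18.0% in WT628, WT993 and WT999, a difference of −1.95 percentage points (exact permutation p = 0.1). With all alpha subunit genes in the sum it was −1.27 points. Gabra2 made up 22.8, 19.6 and 17.3% in these knockout mice, against 22.7, 17.1 and 18.6% in the wild-type mice, and the set A mouse of each genotype had the highest share. Gabra5 averaged 47.7 ± 4.52% in knockout mice and 46.8 ± 5.54% in wild-type mice, and Gabra4 16.1 ± 1.505% and 15.5 ± 2.56%. Across 8 comparisons of shares between genotypes (4 genes in 2 lines) no p was below 0.1, the smallest possible, so none can pass an adjustment over them.

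**Figure D3:**
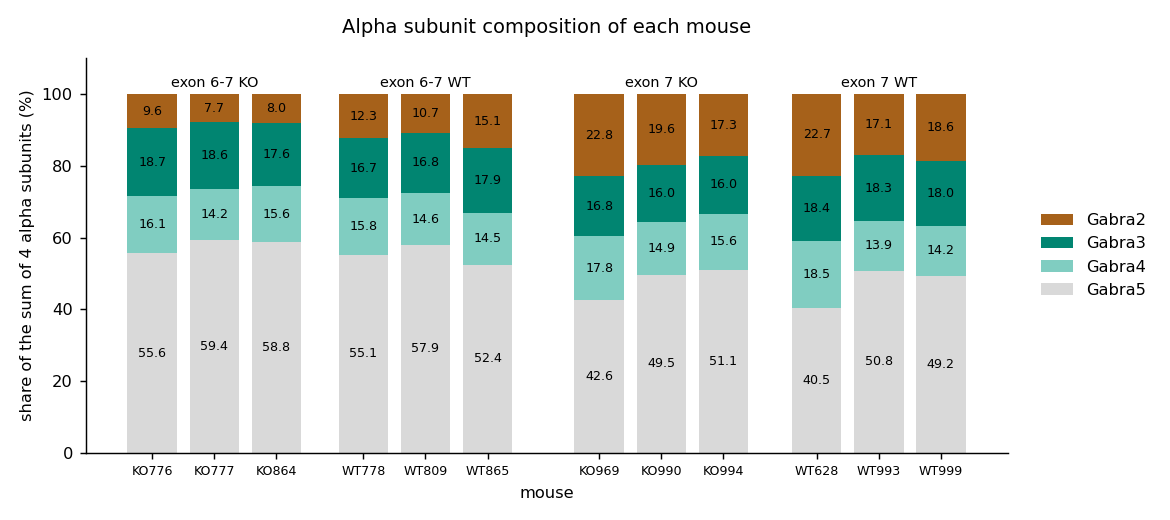
Share (%) of Gabra2, Gabra3, Gabra4 and Gabra5 in their summed scaled FPKM, as a stacked bar for each of the 12 mice. The Gabra2 share is 7.70 to 9.55% in the exon 6-7 knockout mice and 10.7 to 15.1% in their wild-type controls, and Gabra5 is the largest share in every bar.

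In the exon 7 line the set A libraries, 1 of each genotype, stood apart for several subunits. Gabra2 had 37.8 to 38.1 scaled FPKM in set A and 24.1 to 29.9 in the other 4 mice. Gabra4 had 29.7 to 30.8 in set A and 20.3 to 22.8 in the others, and Gabrb2 had 47.0 to 57.7 and 35.1 to 40.9. Gabra5 went the other way, with 67.5 to 71.15 in set A and 71.2 to 79.2 in the others. Of all genes tested, 24.6% had both set A mice of this line above the other 4 and 24.8% below, so this separation is common to many genes. In the exon 6-7 line the set A mice overlapped the others for all 7 genes. Gabrg1, the neighbour of Gabra2, had 7.64 to 8.07 in set A of the exon 7 line and 3.23 to 4.26 in its other mice, and in the exon 6-7 line 4.497 to 4.501 in set A and 3.38 to 4.14 in the others.

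Between the wild types, the largest difference among the 7 genes was in the beta subunits. Gabrb2 had 57.7, 40.9 and 38.8 scaled FPKM in exon 7 wild-type mice WT628, WT993 and WT999, against 1.75, 1.45 and 3.70 in exon 6-7 wild-type mice WT778, WT809 and WT865. The ratio of the means was 19.9, the log2 difference 3.87 (SE 0.240, limma adjusted p = 1.575e-07), and 0.175% of all genes differed at least as much. Gabrb1 had 24.3, 24.8 and 24.8 in the exon 7 wild-type mice, against 3.69, 3.54 and 5.77 in the exon 6-7 wild-type mice (ratio of means 5.68, log2 difference 2.29, SE 0.145, limma adjusted p = 1.758e-07). By its GENCODE coordinates Gabra4 overlaps the start of Gabrb1 by 196 bp on the other strand. The windows printed above are placed by RefSeq starts and do not show this distance. Gabra4 had 30.8, 20.3 and 22.8 in the exon 7 wild-type mice, against 17.0, 14.6 and 17.0 in the exon 6-7 wild-type mice, a ratio of means of 1.52. The ratio of Gabrb1 to Gabrb2 was 0.421 to 0.638 in exon 7 wild-type mice and 1.56 to 2.44 in exon 6-7 wild-type mice, so the more abundant of these beta subunit mRNAs differed between the lines. In knockout mice this ratio was 0.478 to 0.569 for exon 7 and 1.28 to 1.60 for exon 6-7.

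All 7 genes passed in this comparison, 6 of them higher and 1 lower in the exon 7 wild type. Of all genes 66.4% passed, 33.6% higher and 32.8% lower, so passing is no mark of these 7. Gabra2 was higher in exon 7 wild-type mice by a log2 difference of 1.10, Gabra3 by 0.61, Gabra4 by 0.56 and Gabra5 by 0.30. Gabrd went the other way, with 11.4, 8.37 and 8.33 scaled FPKM in the exon 7 wild-type mice, against 15.4, 17.6 and 16.1 in the exon 6-7 wild-type mice (log2 difference −0.76, SE 0.120, limma adjusted p = 0.000167). The ratio of Gabra4 to Gabrd, partners in tonic receptors of granule cells, was 2.43 to 2.74 in exon 7 wild-type mice and 0.826 to 1.10 in exon 6-7 wild-type mice. Marker sums differed as well. Exon 7 and exon 6-7 wild-type mice had dentate granule sums of 173.3 to 190.7 and 95.98 to 113.9. CA3 and CA2 sums were 284.2 to 338.2 and 483.8 to 544.1, and interneuron sums 859.3 to 1083 and 1894 to 1903. Neuron and meningeal sums were higher in the exon 7 wild type and thalamus and striatum sums lower, also without overlap. Sums of the other cell types and tissues overlapped. The part of composition here was not tested. With the trend of each library with transcript length and GC content removed, 4 of the 7 genes passed, Gabrb2 at 3.33, Gabrb1 at 1.01, Gabra5 at 0.51 and Gabra3 at 0.48, while Gabra2 was at 0.31, Gabra4 at 0.02 and Gabrd at −0.25 and did not pass. With FPKM as deposited Gabra5 was at 0.14 and did not pass. Scaling moved the median of all genes here, to −0.13 with FPKM as deposited and to 0.13 after rescaling to TPM, beside −0.00 as scaled here. Of the substrain genes, Ide had 15.8 to 27.6 scaled FPKM in exon 7 wild-type mice and 7.57 to 8.08 in exon 6-7 wild-type mice. Its log2 difference was 1.26 (limma adjusted p = 0.000263), where 66.4% of all genes passed. Nnt, Wdfy1 and Entpd4 overlapped between the wild types. The part of substrain in the subunit values was not tested.

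**Figure D4:**
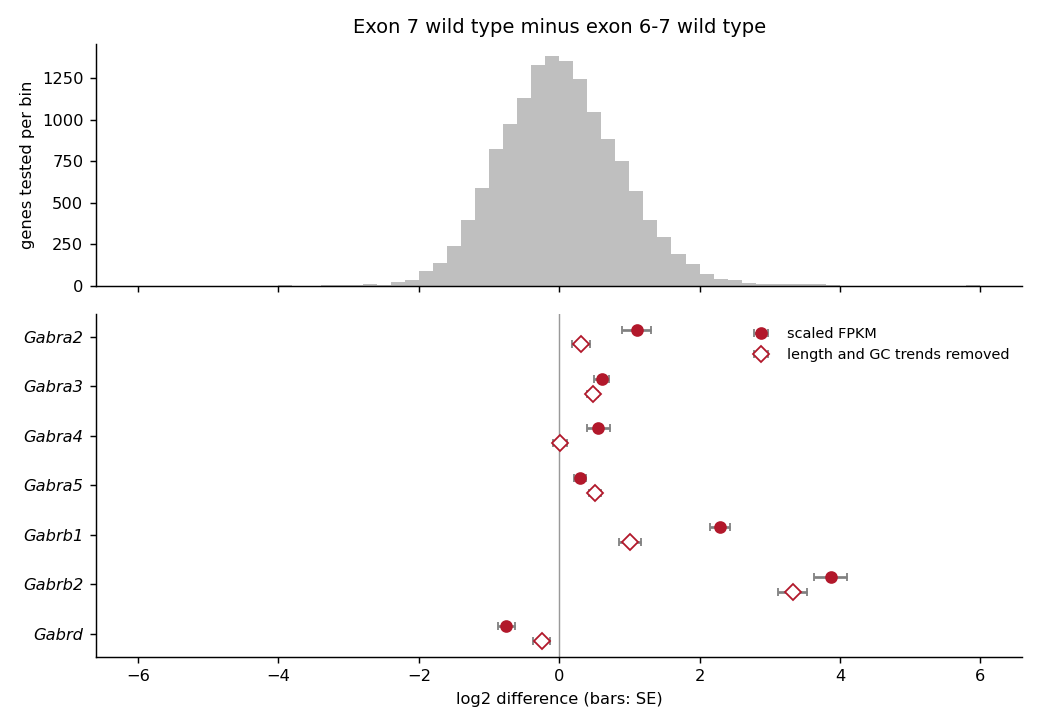
Exon 7 wild type minus exon 6-7 wild type on the log2 scale. The upper panel counts all 14328 genes tested per bin, and the lower panel shows the 7 subunit genes with their SE, filled for scaled FPKM and open with length and GC trends removed. The counts are for scaled FPKM, where Gabrb2 at 3.87 lies in the far tail. With the trends removed Gabrb2 is at 3.33, while Gabra4 moves to 0.02.

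Alpha shares differed between the wild types as well. Gabra2 made up 19.5 ± 2.91% in exon 7 wild-type mice and 12.7 ± 2.20% in exon 6-7 wild-type mice (a difference of 6.73 percentage points), and Gabra5 46.8 ± 5.54% and 55.2 ± 2.73% (−8.35 points), both without overlap (exact permutation p = 0.1). Gabra3 was higher by 1.07 points in the exon 7 wild-type mice, also without overlap, but the difference was −0.68 points when all alpha subunit genes were in the sum. Gabra4 overlapped. Across the 4 shares compared no p could be below 0.1. Shares were not recomputed with length and GC trends removed. With those trends removed the log2 level difference between the wild types was 0.31 for Gabra2 and 0.51 for Gabra5. As scaled it was 1.105 for Gabra2 and 0.298 for Gabra5, so which of them differed more depends on these trends.

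Mouse-to-mouse variation was described after the mean of each line was subtracted, over 12 mice, of which 4 belong to set A. Among the 7 genes the highest Pearson correlations were between Gabrb1 and Gabrb2 (r = 0.794), Gabra3 and Gabrb2 (0.775) and Gabra3 and Gabrb1 (0.734), and the lowest between Gabra5 and Gabrd (−0.55). Of 12779 genes searched, the one most like Gabra2 was Rnf114, a ubiquitin ligase gene (r = 0.944), followed by S1pr5 (0.892) and Tuba1b (0.879). With the mean of each group subtracted instead, Fam49a (0.972), Lmo3 (0.971) and Yae1d1 (0.971) were nearest, so the ranking depends on whether the genotype difference is kept. Nearest to Gabra3 was Mis12 (0.939), to Gabra5 Adgrg1 (0.884), to Gabrb1 Btbd7 (0.931) and to Gabrb2 Tnfaip8l3 (0.958), and Zik1 (0.969) and Spop (0.967) were among the 3 nearest to Gabra4. The nearest of so many genes over 12 mice can correlate highly by chance, and no p was computed.

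Gabrd was most like Pvalb, the gene of parvalbumin, a calcium-binding protein of fast-spiking interneurons, at r = 0.908, followed by Crhr1 (0.893) and Fam53b (0.860). Pvalb had 47.4, 48.4 and 50.5 scaled FPKM in KO776, KO777 and KO864, against 60.8, 66.5 and 62.5 in WT778, WT809 and WT865. Neither gene overlapped between these genotypes, and both were highest in WT809. Pvalb was picked as the nearest of 12779 genes with the genotype difference kept. A pattern shared with Gabrd, in either line, follows from that choice and is no separate evidence. For Pvalb the log2 difference was −0.37 (SE 0.156, unadjusted p = 0.0365, limma adjusted p = 1.0). In the exon 7 line Pvalb had 15.9, 21.2 and 18.4 in KO969, KO990 and KO994, against 27.3, 17.0 and 17.7 in WT628, WT993 and WT999, with the maximum in WT628 as for Gabrd.

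WT628 also held transcripts of the cerebellum. Gabra6, the alpha subunit gene of cerebellar granule cells, was at 3.63 scaled FPKM in WT628 and at no more than 0.0557 in the other 11 mice, of which 8 did not list it. Cbln3 was at 2.48 in WT628 and at most 0.232 elsewhere, Fat2 at 0.773 and at most 0.0873, and Pcp2 at 4.29 and at most 1.22. Of 10 such genes, a list drawn up after the values were seen, Car8 and En2 were also highest in WT628, and Cbln1, Zic1, Zic2 and Slc1a6 lay within the range of the other mice. Cerebellar granule cells also express Gabrd, and the part of this tissue in the Gabrd value of WT628 was not tested.

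**Figure D5:**
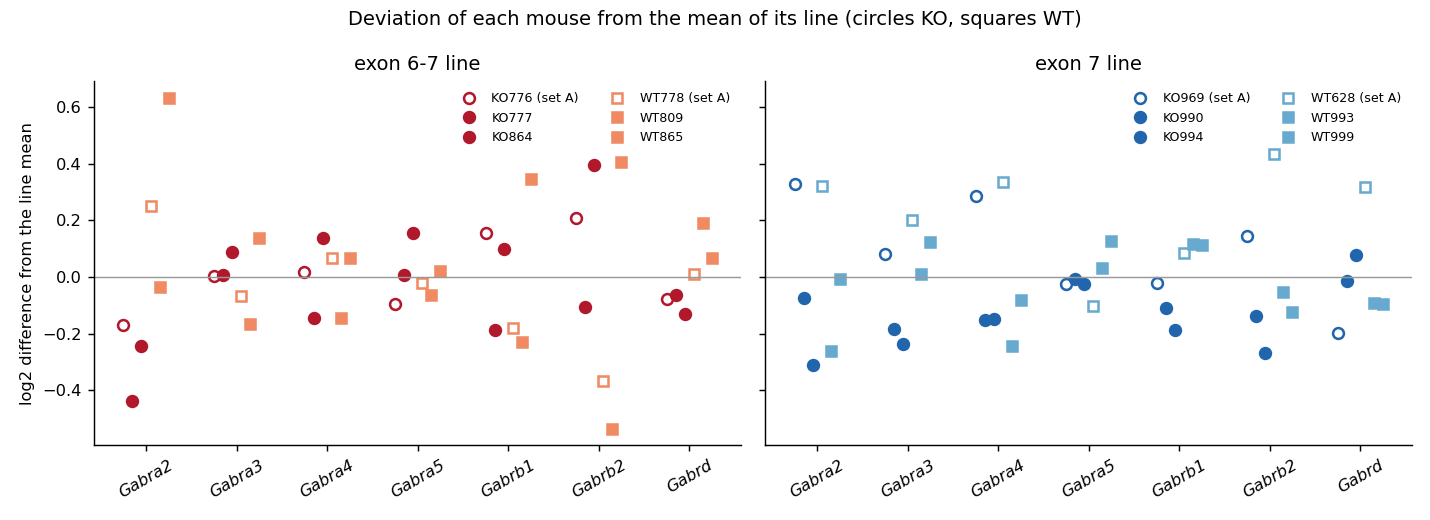
Log2 deviation of each mouse from the mean of its line for the 7 subunit genes, with circles for knockout, squares for wild-type and open symbols for set A mice. In the exon 6-7 line the 3 knockout circles lie below the 3 wild-type squares for Gabra2 and Gabrd, and in the exon 7 line both open symbols lie at the top for Gabra2, Gabra4 and Gabrb2.

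Genes that work with these receptors did not pass in either knockout comparison. Of 12 other GABA-A subunit genes 5 reached a mean of 1 FPKM, and 0 of 5 passed in the exon 6-7 line (median log2 difference 0.02) or the exon 7 line (−0.03). Among them Gabrg1 was at 0.08 and Gabrg3, the gene of another gamma subunit, at −0.02 in the exon 6-7 line. Between the wild types 4 of the 5 passed, all higher in the exon 7 wild type, as 33.6% of all genes were. The median of the 5 was 0.67 and became −0.10 with length and GC trends removed. Of 22 genes of the inhibitory postsynapse and of receptor trafficking 0 passed in either line, with medians of 0.01 and −0.03. The 4 with the smallest p in the exon 6-7 line were Plcl1, whose product binds GABA-A receptors and phosphatases, at 0.27, the palmitoyltransferase gene Zdhhc3 at −0.15, Gabarapl1 at −0.12 and the transport adaptor gene Trak2 at 0.10. Between the wild types 12 of the 22 passed as higher and 7 as lower in the exon 7 wild type, where 33.6% and 32.8% of all genes did. Their median of 0.42 became 0.17 with length and GC trends removed. Of 12 genes of GABA synthesis, GABA transport and chloride balance 0 passed in either line, with medians of −0.01 and −0.04. The kinase gene Stk39 was at 0.32 in the exon 6-7 line, the carbonic anhydrase gene Car7 at −0.14, the vesicular transporter gene Slc32a1 at −0.12 and the chloride exporter gene Slc12a5 at −0.07. Between the wild types 7 of these 12 passed as higher and 2 as lower in the exon 7 wild type, beside the same shares of all genes. Their median of 0.39 became −0.16 with length and GC trends removed.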

How the data were processed

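RNA from the hippocampi of 12 mice (4 groups of 3) was measured by poly(A) RNA sequencing with TruSeq libraries, per the labels' protocols. The authors deposited FPKM values, 1 table per mouse, with Ensembl release 74 identifiers, per the file headers. CASAVA, GSNAP, Cufflinks and mm10 appear in the submitters' processing notes with no role given. How strand and multiply mapped reads were handled is not stated in them. The lowest listed values (3.96e-07 to 1.87e-05 FPKM) are no whole-read steps, so depth is unknown and no counting error is attached.

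A gene not listed was given 0. Scaling between libraries used a median of ratios over 12511 genes (factors 0.919 to 1.07). The 14328 genes whose mean reached 1 FPKM were tested with limma 3.58.1 (limma-trend, R 4.3.3) on log2(scaled FPKM + 1), which understates fold changes of low genes, with 4 group means, 8 residual degrees of freedom (prior 3.36) and two-sided Benjamini-Hochberg adjusted p under 0.05. The fit was tested on simulated data. Single values had exact two-sided permutation tests over 20 relabellings. No pair of libraries shared more than 0.00546% of values, and groups were taken from the genotype labels. The labels give each animal its own number.

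The 7 genes, the pathway and marker lists and the tests were chosen with earlier results of these data known. The rule for named genes took the 7 genes, up to 4 genes of each pathway list with the smallest p in the exon 6-7 line, and the 3 genes nearest to each of the 7. Some genes that this rule selects are not reported here. Gabra6 and the other cerebellar genes were chosen after their values were seen. GENCODE M21 gave symbols, coordinates, lengths and GC content, and promoter windows came from RefSeq. Alternatives were other pseudocounts, filters and scalings, each line alone, the set A libraries as a term or left out, length and GC trends removed, each mouse left out, all alpha subunits in the sum and, added after seeing the data, small RNAs left out.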

Additional observations from a re-analysis of the deposited data

How the results depend on the processing

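Under every alternative run 0 of the 7 genes passed in both knockout comparisons, in their difference and in their mean, and Gabra2 in the exon 6-7 line kept its sign (−0.72 to −0.39 with a mouse left out, −0.64 to −0.43 otherwise, adjusted p 0.559 to 1.0). Between the wild types 7 genes passed under all alternatives but 2, with 6 for FPKM as deposited and 4 with length and GC trends removed. With all alpha subunit genes in the sum, the Gabra3 share difference was −1.27 points in the exon 7 knockout comparison, and between the wild types −0.68 for Gabra3 and 3.10 for Gabra2. The causes were not tested.

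Single differences changed sign as follows. With length and GC trends removed, Gabra4 was at −0.046 and Gabrb1 at −0.055 in the exon 6-7 line, Gabra2 at 0.011 and Gabra4 at 0.030 in the exon 7 line, and Gabra4 at −0.077 in the difference of effects. Without set A, Gabrb1 was at −0.10 in the exon 6-7 line, and Gabra4 at 0.0097 and Gabrd at 0.12 in the exon 7 line. In the exon 7 line after rescaling to TPM, Gabra2 was at 0.012, Gabra4 at 0.040 and Gabra5 at 0.0094, and Gabra4 was at 0.00051 with FPKM as deposited, 0.0092 after quantile normalization and 0.00078 with each line alone. Its difference of effects was −0.0016 after quantile normalization. With a mouse left out, the exon 6-7 line gave −0.0019 to 0.15 for Gabra3, −0.063 to 0.082 for Gabra4, −0.024 to 0.10 for Gabra5 and −0.061 to 0.23 for Gabrb1. The lower ends came from leaving out WT809, or KO864 for Gabra5. The exon 7 line gave −0.21 to 0.12 for Gabra2, −0.15 to 0.16 for Gabra4, −0.099 to 0.015 for Gabra5, −0.29 to 0.0013 for Gabrb2 and −0.16 to 0.049 for Gabrd. The upper ends for Gabra2, Gabra4, Gabrb2 and Gabrd came from leaving out WT628 and that for Gabra5 from leaving out WT999. The difference of effects gave −0.15 to 0.16 for Gabra4, lowest without WT628.

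No paired analysis was possible because each mouse number occurs in 1 group only. Precision rests on 3 mice a group and on FPKM that hold no read counts.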
